A study of Mus musculus with 33 samples.

Results

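Dmpk is the gene whose CTG repeat was expanded in these mice, and Sympk lies close upstream of it on the same strand of mouse chromosome 7. All events of either gene in the 20 splicing tables were taken by gene symbol, which gave 9 events (7 of Dmpk and 2 of Sympk) of 549 in all, in 7 of the tables. RNA was sequenced from tibialis anterior (TA), a fast leg muscle, from myotubes (fused muscle cells grown in culture) and from choroid plexus, the tissue that secretes cerebrospinal fluid. The groups used here are 480/480 TA (both Dmpk alleles with 480 CTG repeats) and wild-type TA, and 480/480, +/480 (1 expanded allele) and wild-type myotubes, with 3 libraries in each group. All are on the FVB strain and carry no other edited allele by the labels, which give no age or sex. Each library is from another mouse, but the myotubes and choroid plexus are labelled as derived from the same mice as the TA, so results in the tissues are not independent. Neither gene has an event in the choroid plexus tables, which compare 480/480 with wild type. Dmpk has none in +/480 myotubes, and Sympk none in 480/480 TA. No table holds +/480 TA or +/480 choroid plexus. An event that is not in a table was not shown to be unchanged, since the tables hold only what passed the authors' selection.

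Each event has an inclusion level per library, the percentage of RNA that keeps the sequence in question (an exon, the extra part of an exon, or an intron). An event is in the tables when it had at least 5 reads on average, an FDR of at most 0.05 and an inclusion change of 10 percentage points or more. All 9 events met these thresholds, and "rose" or "fell" has that meaning throughout. Means are given ± SD over 3 libraries a group. With 3 libraries against 3, an exact permutation test (two-sided) cannot go below p = 0.10, so significance rests on the authors' FDR. Counts and expression levels were not analysed here. The read depth of single values is therefore unknown, and the tissue labels were not checked against marker genes. In bulk RNA, a different mix of cell types and a change within cells cannot be told apart.

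Dmpk encodes a serine/threonine kinase of skeletal muscle, heart and brain. Expansion of the CTG repeat in its 3′ untranslated region (UTR) causes myotonic dystrophy type 1, in which the RNA with the long CUG repeat is retained in nuclear foci and sequesters splicing regulators of the Mbnl family. The exons at the 3′ end of the coding region are known to be spliced in several ways, which give kinases with different tails, some of them anchored in membranes of the endoplasmic reticulum or mitochondria. Sympk encodes symplekin, a scaffold of the complexes that cleave pre-mRNA before polyadenylation and form the 3′ end of histone mRNA.

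The Dmpk events fall at 2 places, a coding exon in the first part of the gene and the exons just before the last one. On mm10 the gene runs from 19083849 to 19093821 of chromosome 7, on the plus strand, with 15 exons in its main coding transcript. The coding exon is the fifth, at chromosome 7, 19086893 to 19087041, and is 149 bases long. Its start and its junctions are shown because they are the sequence by which reads with and without it are told apart. The exon is in capitals and the intron or neighbouring exon in lower case, 5′ to 3′ (mm10, plus strand, GENCODE M21 transcripts; the intron bases are from the Mir3100 hairpin in RefSeq).
End of the intron and start of the exon, chr7:19086878-19086907: cacacccgctcccagTACCTGGTCATGGAA
Exon included, junction with the exon before: gatgagaactacctgTACCTGGTCATGGAA
Exon included, junction with the exon after: GGGCTACGTGCACAGggacatcaaaccaga
Exon skipped, junction of the neighbours: gatgagaactacctgggacatcaaaccaga
The 65 intron bases right before this exon are annotated as the microRNA gene Mir3100 (chromosome 7, 19086828 to 19086892), whose hairpin ends at the splice site.

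The other place has an early donor, a late donor, a far acceptor and a pair of near acceptors 4 bases apart. The early donor ends a 98-base exon at 19092036, a 47-base exon follows at 19092208 to 19092254 and ends at the late donor, and the next exon ends at 19092632. That exon is 215 bases long from the far acceptor (19092418), 90 bases from the first near acceptor (19092543) and 86 from the second (19092547). The splice sites are shown because the events are choices between them, with exon in capitals and intron in lower case (mm10, plus strand, GENCODE M21 transcripts).
Early donor, chr7:19092022-19092051: CCCCAGGAGCCGCAGgcgagtccctcacct
Acceptor of the 47-base exon, chr7:19092193-19092222: ctcttctccttccagCCATCACGGGGGTCC
Late donor, chr7:19092240-19092269: GATCCACCTTCCCATgtaagacccctctct
Far acceptor, chr7:19092403-19092432: tctccctcgtttcagGCTTCTCGCCAAATC
Near acceptors, chr7:19092532-19092561, capitals from the second: tctctctccagctagATGGCCCCCCGGCCG
The intron after the early donor begins with GC, where the late donor has the usual GT. Both near acceptors end in AG, and the 4 bases between them are in the 90-base form but not in the 86-base form.

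In 480/480 TA the coding exon of Dmpk was skipped more often than in wild type. Its inclusion was 84.5%, 80.5% and 70.9% in the 480/480 libraries, against 97.1%, 97% and 96.4% in wild-type libraries. The wild-type libraries lay within 1 point of each other and every 480/480 library was lower. The means were 78.6% ± 6.99 in 480/480 and 96.8% ± 0.379 in wild type, so inclusion fell by 18.2 points, and the authors' deposited table lists the FDR as 0. Skipped RNA was 21.4% of the total in 480/480 and 3.17% in wild type, 6.75 times as much. By size the change ranked 64 of the 81 TA events, but no other TA event has an FDR listed as 0. The median size over the 81 events was 28.8 points.

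The length of this exon is not a multiple of 3. Joined without it in the main coding transcript, the reading frame met a stop codon after 149 codons, at 19087255 in the next exon, where the full frame has 631 codons. The junction that skips it is in none of the 18 Dmpk transcripts of GENCODE M21, of which 8 hold the exon. Whether the skipped RNA was translated or degraded was not measured.

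At the 3′ part of the gene in TA, the 171-base intron between the 98-base and 47-base exons (chromosome 7, 19092037 to 19092207) was retained more in 480/480. Retention was 20%, 33.1% and 17.2% in the 480/480 libraries, against 5.5%, 4.7% and 12.3% in wild-type libraries. The highest wild-type library lay 4.9 points below the lowest 480/480 library. Mean retention was 23.4% ± 8.49 in 480/480 and 7.5% ± 4.18 in wild type, a rise of 15.9 points, with an FDR of 1.59e-08 in the authors' deposited table. This is the intron that begins with GC. RNA that kept it met a stop codon inside the intron, at 19092102, after 557 codons.

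Another 2 TA events compare the far acceptor with a near one in RNA that leaves the 98-base exon by the early donor and skips the 47-base exon. Against the second near acceptor (86-base form), the far acceptor was used at 100%, 100% and 100% in the 480/480 libraries and at 73.4%, 67.3% and 76.5% in wild-type libraries. In this RNA without the 47-base exon, no 480/480 library was listed with any of the 86-base form, which made up 27.6% in wild type. The 86-base form joined from the late donor was still found in 480/480 TA, in the last TA event below. The wild-type mean was 72.4% ± 4.68, and the rise of 27.6 points had an FDR of 0.000596 in the authors' deposited table. Against the first near acceptor (90-base form), use of the far acceptor was again 100% in all 3 480/480 libraries, against 89.6%, 59% and 90.2% in wild-type libraries (mean 79.6% ± 17.8). The wild-type library at 59% stood apart from the other 2, and the rise of 20.4 points came to 10.1 points without it. The authors' deposited table lists an FDR of 0.00945 for this event.

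The last TA event compares the late with the early donor in RNA joined to the second near acceptor. The late donor was used at 100% in each 480/480 library, and at 89.8%, 85.6% and 87.6% in wild-type libraries. The groups did not overlap, and the rise was 12.3 points over a wild-type mean of 87.7% ± 2.10, with an FDR of 0.00231 in the authors' deposited table. The form lost here, early donor to second near acceptor, is also the form lost in the event against the 86-base form, so these events share a junction and are not independent. Although the table describes the longer form as an exon with the intron kept, its junction also occurs in RNA with the 47-base exon, and that junction by itself does not tell these apart.

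**Figure D1:**
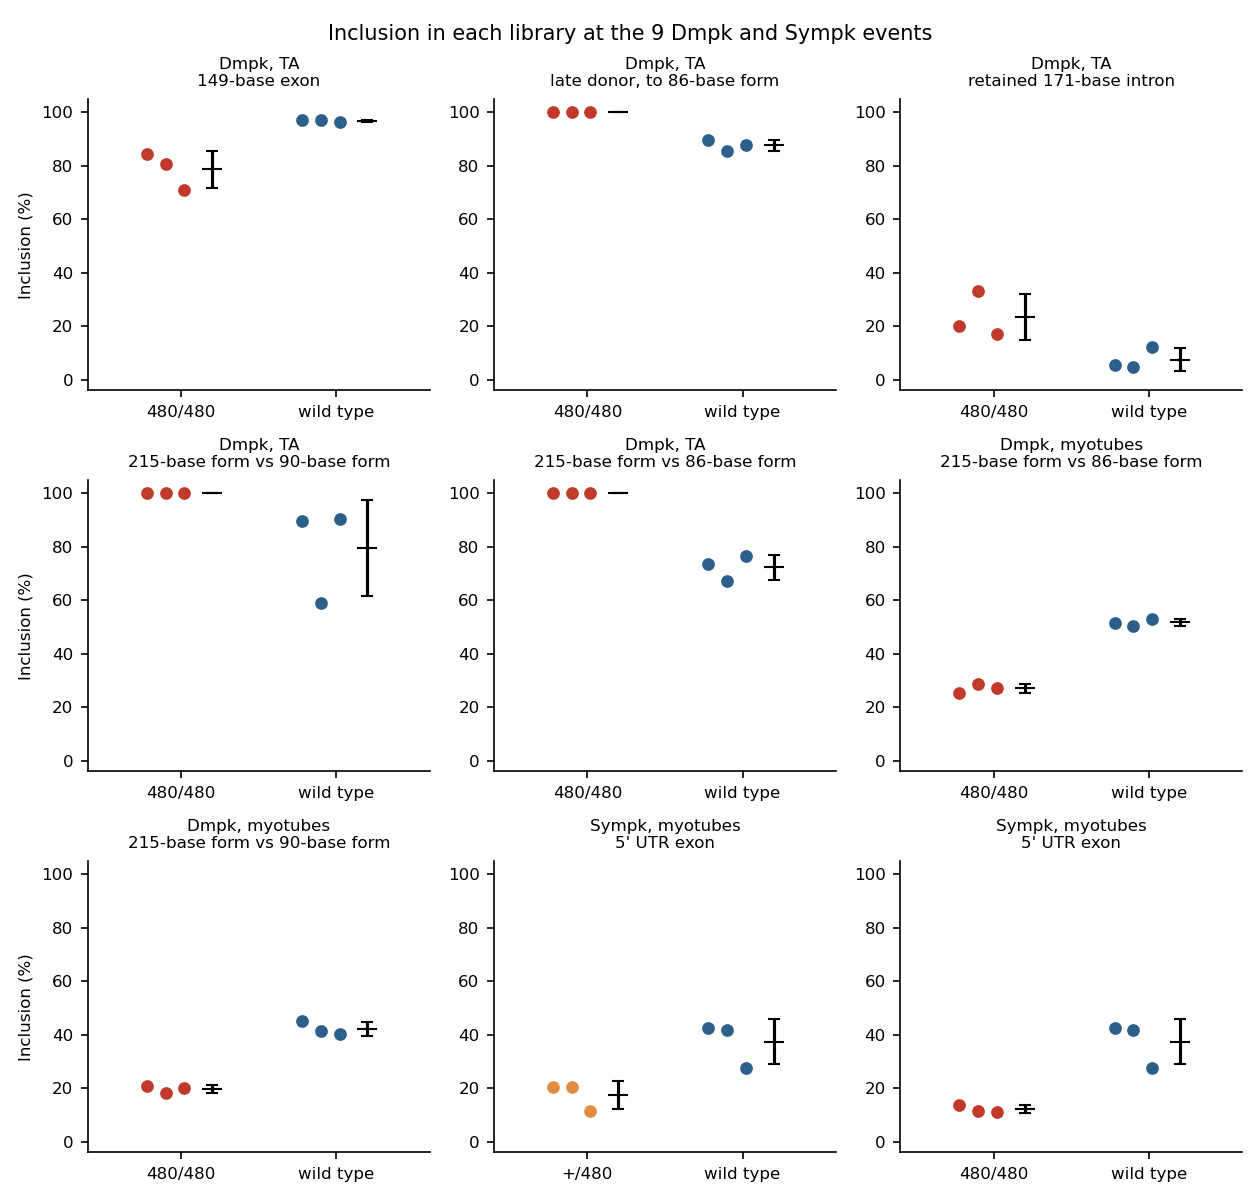
Inclusion in percent (vertical axis) in each library at the 9 events, with expansion libraries at the left and wild-type libraries at the right of each panel; bars give the mean and SD of 3 libraries. The groups do not overlap in any panel, and 3 of the TA panels have every 480/480 library at 100%.

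In all, 4 of the 5 Dmpk events in TA rose and 1 fell, while 47 of all 81 TA events rose and 34 fell. The groups did not overlap at 5 of 5 Dmpk events, where 71.6% of all TA events had no overlap. Every 480/480 library was at 100% at 9 TA events, and 3 of these were in Dmpk. No other gene had as many TA events as Dmpk, the next having 4, but some of the 5 overlap in position, and they come to 3 when overlapping events are counted once.

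**Figure D2:**
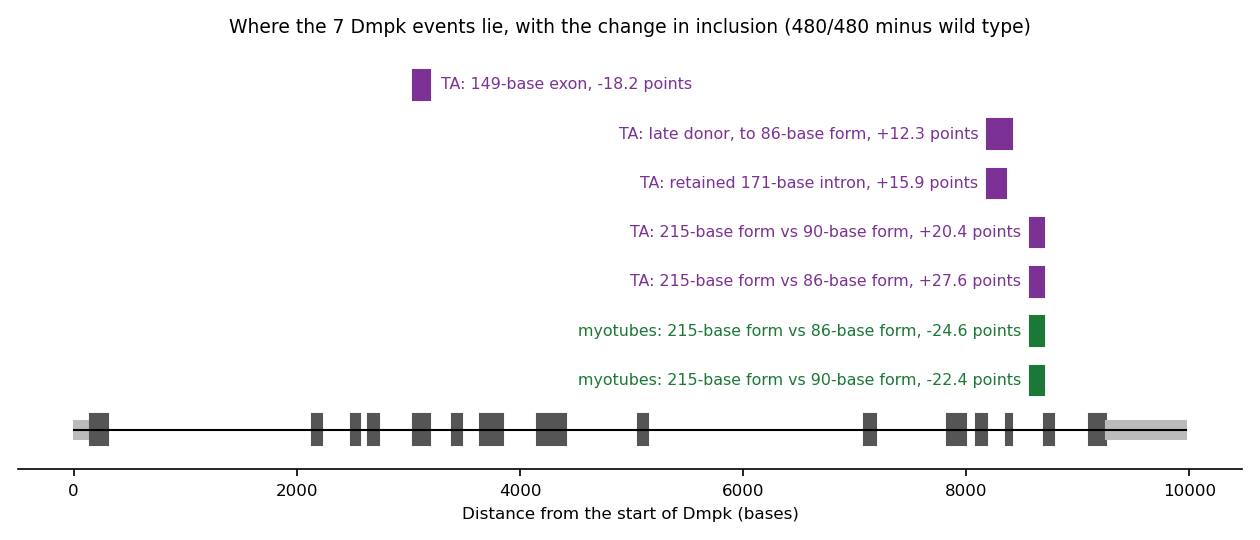
The 7 Dmpk events along the gene, in bases from its start, with exons of the main coding transcript below (coding parts dark, UTR light) and the change in inclusion, 480/480 minus wild type, in percentage points. The TA events lie at the fifth exon and just before the last exon, and both myotube events lie just before the last exon.

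In 480/480 myotubes the choice between the far and the near acceptors changed the other way. Here both events are in RNA that uses the late donor. Against the 86-base form, the far acceptor was used at 25.4%, 28.7% and 27.2% in the 480/480 libraries, and at 51.6%, 50.5% and 53.1% in wild-type libraries. The libraries of each group lay close together, 21.8 points apart between groups at the nearest. The mean was 27.1% ± 1.65 in 480/480 and 51.7% ± 1.31 in wild type, so far acceptor use fell by 24.6 points. Against the 90-base form, the far acceptor was used at 20.9%, 18.2% and 20.2% in the 480/480 libraries, and at 45.1%, 41.3% and 40.2% in wild-type libraries. It fell by 22.4 points here, to 19.8% ± 1.4 in 480/480, against 42.2% ± 2.57 in wild type, and again no libraries overlapped.

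The authors' deposited table lists the FDR of both myotube events as 0, as it does for 19 of the 243 events of 480/480 myotubes. By size they ranked 99 and 112 of the 243, whose median size was 21 points. The groups did not overlap at 2 of 2 Dmpk events, where 89.7% of all events in 480/480 myotubes had no overlap. Both events hold the junction of the late donor with the far acceptor and differ only in the near acceptor, so they are not independent. One names the 98-base exon with its intron kept as the flanking exon and the other the 47-base exon, but the donor is the same.

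The events with the same pair of acceptors were set side by side across tissues. Against the 86-base form, far acceptor use rose by 27.6 points in 480/480 TA and fell by 24.6 points in 480/480 myotubes, so the changes were 52.2 points apart. Against the 90-base form it rose by 20.4 points in 480/480 TA and fell by 22.4 points in 480/480 myotubes, 42.8 points apart. No p is given for these differences, because the events were chosen after their values were seen and the libraries of both tissues come from the same mice. The TA events are in RNA joined straight from the early donor, without the 47-base exon. The myotube events are in RNA joined from the late donor, with the 47-base sequence. Tissue and donor therefore cannot be told apart here.

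**Figure D3:**
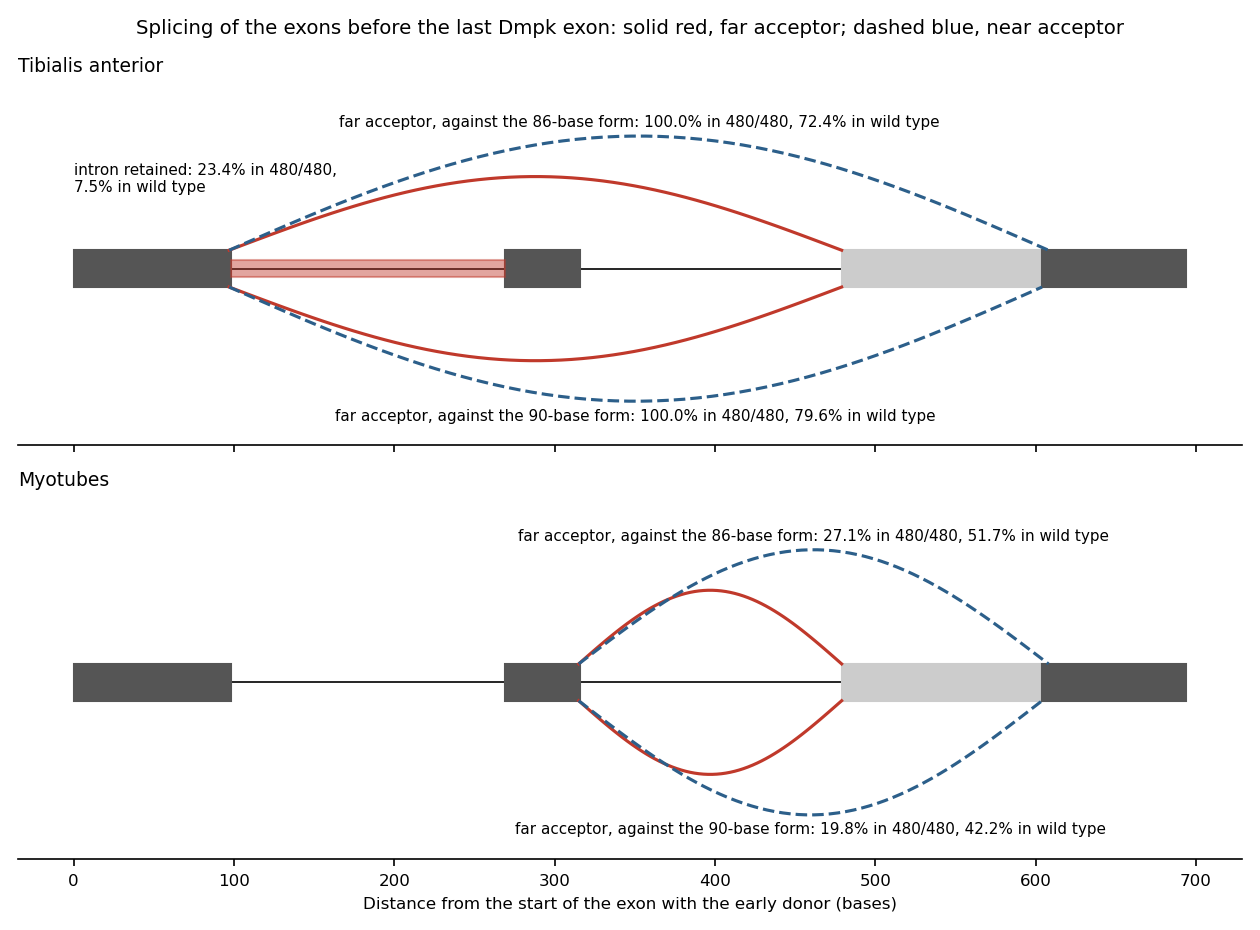
Splice junctions of the exons before the last Dmpk exon, in bases from the start of the 98-base exon, for TA (above) and myotubes (below); solid arcs lead to the far and dashed arcs to a near acceptor, light grey marks the part of the exon that only the far acceptor keeps, and pink marks the retained intron. In RNA joined straight from the early donor, without the 47-base exon, far acceptor use is 100% in 480/480 TA, against 72.4% and 79.6% in wild type. In RNA from the late donor, it is 27.1% and 19.8% in 480/480 myotubes, against 51.7% and 42.2% in wild type. No TA event gives far acceptor use in RNA joined from the late donor. For the myotube event against the 86-base form the table names the exon with the intron kept as its flank.

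These choices set where the reading frame of Dmpk ends. With the far acceptor, the frame met a stop codon before the last exon, after 593 codons with the 47-base exon (stop at 19092544) and after 554 codons without it (stop at 19092474). GENCODE M21 lists a transcript with the first of these as a target of nonsense-mediated decay, the pathway that removes RNA with an early stop codon. With a near acceptor the frame ended in the last exon in each of the spliced combinations. Including the 47-base exon, it ended after 631 codons by the first near acceptor (stop at 19093100) and after 632 by the second (stop at 19093107). Without the 47-base exon, it ended after 567 codons by the first (stop at 19092955) and after 614 by the second (stop at 19093100). In RNA that kept the intron before the 47-base exon, the stop was the one inside that intron with any of the 3 acceptors. RNA with the 47-base exon also uses the early donor where the intron before that exon is spliced out. How much of all Dmpk RNA skips the 47-base exon is not given by these events. The 3 junctions from the early donor to the far and near acceptors are in no GENCODE M21 transcript, whereas all 3 from the late donor are.

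All Dmpk events lie before the 3′ UTR, which runs from 19093103 to 19093821 in the main coding transcript. The last exon with an event ends 470 bases before it. The expanded allele has 480 CTG repeats, where the longest uninterrupted CTG run in that UTR on mm10 is 2 copies. The tables use mm10, without the expansion, and the part that the edited sequence has in the values near it was not tested.

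Sympk fell at 1 exon in myotubes of both expansion genotypes. The exon (chromosome 7, 19027897 to 19028022, 126 bases) lies in the 5′ UTR, between the first exon and the exon with the start codon at 19028883, and 1 of 8 GENCODE M21 transcripts of the gene holds it. The junctions are shown because they separate RNA with the exon (capitals) from RNA without it (mm10, plus strand, GENCODE M21 transcripts).
Included, junction with the first exon: gccggagtcgcgAACCCCTGCATT
Included, junction with the exon of the start codon: TTAAGACTACAGggagaacctgac
Skipped: gccggagtcgcgggagaacctgac

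In 480/480 myotubes the exon was included at 13.8%, 11.6% and 11.1%, against 42.7%, 41.9% and 27.6% in wild-type myotubes. Every 480/480 library was below every wild-type library, and the lowest wild-type library was 13.8 points above the highest of 480/480. The mean was 12.2% ± 1.44 in 480/480 and 37.4% ± 8.50 in wild type. Inclusion fell by 25.2 points, with an FDR of 7.44e-07 in the authors' deposited table. In +/480 myotubes it was included at 20.3%, 20.6% and 11.6%, against the same 3 wild-type libraries. All 3 +/480 libraries were below the lowest wild-type library, by 7 points at the nearest. Mean inclusion was 17.5% ± 5.11 in +/480 and fell by 19.9 points relative to wild type, and the authors' deposited table lists an FDR of 0.00988. The groups did not overlap at this event in either comparison, where 80.9% of all +/480 events and 89.7% of all 480/480 events in myotubes had no overlap.

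With 0, 1 and 2 expanded alleles, inclusion of the Sympk exon thus averaged 37.4%, 17.5% and 12.2%. The 480/480 mean minus the +/480 mean was -5.33 points, and the libraries overlapped (exact two-sided permutation p = 0.30, where the smallest possible is 0.10). One of the +/480 libraries, at 11.6%, lay within the range of 480/480 libraries. The comparisons with wild type share their wild-type libraries and are not independent of each other. By size the change ranked 92 of 243 events in 480/480 and 77 of 110 in +/480 myotubes, whose median size was 23.8 points.

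**Figure D4:**
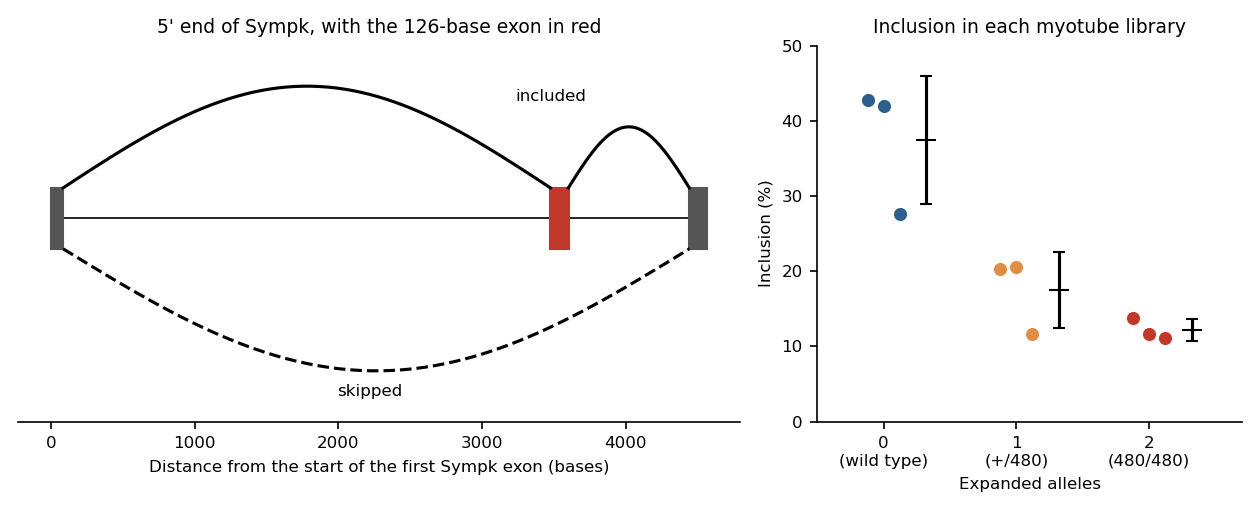
Left, the first 3 exons of the Sympk transcript that holds the exon, in bases from its start, with solid arcs for inclusion and a dashed arc for skipping. Right, inclusion in percent in each myotube library by number of expanded alleles, with mean and SD; wild-type libraries lie between 27.6% and 42.7%, above all +/480 and 480/480 libraries, and the +/480 and 480/480 libraries overlap.

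The Sympk protein is the same with and without this exon, because it lies wholly before the start codon. With it the 5′ UTR of that transcript is 232 bases long, and without it 106. The exon holds 2 ATG triplets. The reading frame from the first (19027928) closed after 17 codons within the exon, and that from the second (19028008) ran for 44 codons, past the start codon of Sympk and out of its frame. Whether either is used was not measured.

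Sympk ends 29.2 kb before Dmpk starts, and the genes between them are Rsph6a, a gene for a protein of the sperm radial spoke, and Dmwd, a WD-repeat gene. Six5, a homeobox gene, starts 772 bases after the end of Dmpk. None of the 15 genes listed for this locus, these 3 among them, had an event in any table. Within 1000000 bases of the start of Dmpk the tables hold 10 events, the 9 described here and a retained intron of Clasrp in 480/480 TA. The Clasrp event lies 498.2 kb after the end of Dmpk.

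**Figure D5:**
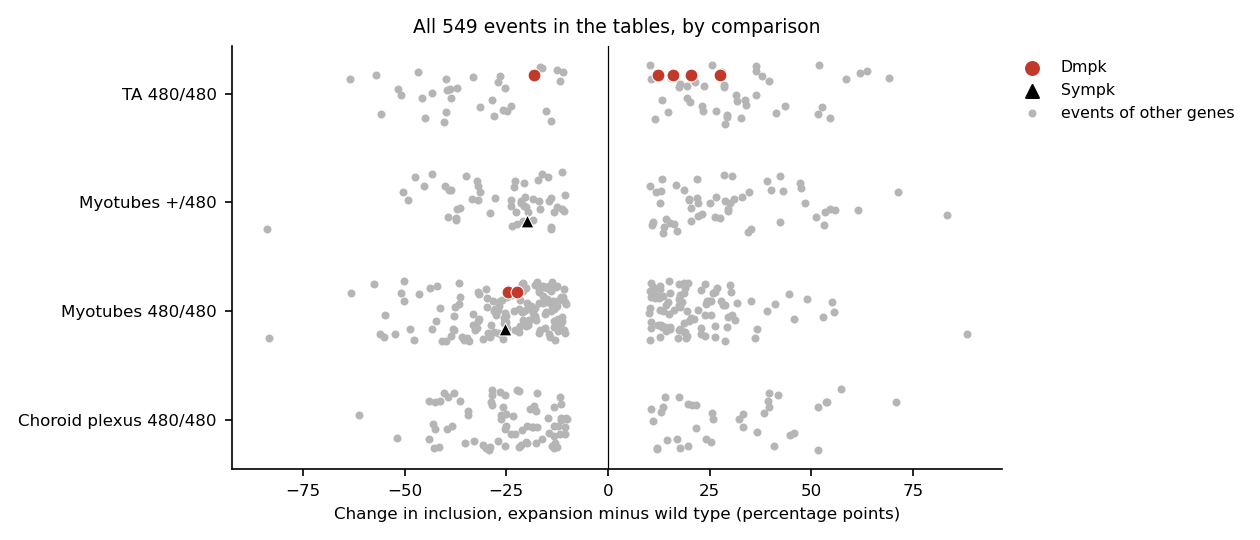
Change in inclusion, expansion minus wild type, in percentage points (horizontal axis) for all 549 events, by comparison; circles are Dmpk, triangles Sympk and small points other genes, spread vertically for legibility. Dmpk events lie on both sides of 0 in TA and below it in 480/480 myotubes, and the Sympk events lie below 0; the gap around 0 is the authors' threshold.

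None of 26 genes of pre-mRNA 3′ end processing, the complexes in which symplekin acts, was in any table. The tables hold only selected events, so the share of all measured genes that had an event is unknown, and counts of list members are given without a background.

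Of 11 reported substrates and partners of Dmpk, 3 had an event, each in myotubes, for which the tables hold 243 events in 480/480 and 110 in +/480, while they hold 81 in 480/480 TA. Ppp1r12a, the targeting subunit of myosin phosphatase, rose to 91.0% ± 3.95 in 480/480, against 75.7% ± 7.21 in wild type, and its relative Ppp1r12b fell to 6.93% ± 3.61 in 480/480, against 21.5% ± 6.21 in wild type. Cacna1s, the calcium channel subunit that senses voltage in muscle fibres, fell to 16.1% ± 2.72 in 480/480 and 27.3% ± 1.6 in +/480, against 37.8% ± 5.14 in wild type. Of 14 proteins that bind CUG repeats or act against those that do, Mbnl1 alone had an event, at 34.5%, 46.9% and 57.7% in 480/480 myotubes, against 15.4%, 29.3% and 25.9% in wild-type myotubes. The authors' deposited table gives it an FDR of 0.0496, close to the threshold of 0.05. In TA and choroid plexus, where Dmpk had 5 events and none, no gene of these lists was in a table.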

How the data were processed

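The submitters' processing notes name FastQC, STAR and the mm10 build without versions. For the splicing caller, no name was given in the sources used here. Libraries were directional and depleted of ribosomal RNA, per the labels' protocols. The deposited tables give each event a p-value and FDR by the authors, an inclusion fraction per library, and a difference score by the authors (wild type minus expansion). Per the file headers, events needed 5 reads on average, an FDR of 0.05 or less and a difference of 10 points or more. Depth is otherwise unknown.

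Fractions were turned into percentages and changes computed as expansion minus wild type; they lay within 0.0333 points of the deposited differences in the comparisons with Dmpk or Sympk events. Of 33 labelled libraries in 11 groups, 12 in 4 groups are in no table and were not analysed here. The choroid plexus tables hold 2 values per event for 480/480, where 3 libraries are labelled. Value lists carry no replicate number. The named genes are every Dmpk and Sympk event and up to 4 members of each of 5 lists; the result of 1 list is not reported here. Members and lists were chosen with earlier results of these data known. Exons, junctions and stop codons come from GENCODE M21 (mm10); the main coding transcript is the one with the longest coding sequence. Exact permutation tests over libraries were used, and the calculation was tested on simulated data. The test between expansion genotypes was added after the data were seen. A relabelling test between tissues was also run, and its p is not given because it treats tissues that share mice as independent. Alternatives were group medians, the deposited differences, stricter thresholds, merging of overlapping events and leaving out each library. Python 3.11.15, NumPy 2.4.6 and matplotlib 3.10.9 were used.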

Additional observations from a re-analysis of the deposited data

Results flagged for a closer look

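The use of the far acceptor of the 215-base Dmpk exon moved in opposite directions in the tissues, with every 480/480 TA library above and every 480/480 myotube library below the wild-type libraries of its tissue. Change in TA minus change in myotubes was 52.2 points against the 86-base form and 42.8 points against the 90-base form. The events were chosen after these values were seen and the tissues share their mice, so no p is given. The TA events are in RNA joined straight from the early donor, without the 47-base exon. The myotube events are in RNA joined from the late donor, with the 47-base sequence. Tissue and donor therefore cannot be told apart.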

How the results depend on the processing

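All 9 changes kept their direction under group medians, the authors' difference column and leaving out each library (72 values in all). Medians or leaving out a library could not reverse a direction, because the groups did not overlap at any of the 9 events. The authors' column is the same difference, rounded. All 72 values also lay within 1 SD of the more variable group. Leaving out 1 of 3 libraries moves a group mean by less than 1 SD in any case. Leaving out 1 library, the change of the 149-base Dmpk exon lay between -21.1 and -14.3 points, that of intron retention between 11.1 and 19.1, and that of the Sympk exon between -30.1 and -22.6 in 480/480 and between -24.8 and -17.0 in +/480. The TA event against the 90-base form ranged from 10.1 to 25.7. At an FDR of 0.01 or less all 9 events remained. At 20 points or more the Dmpk count in TA was 2 of 5 and the Sympk count in +/480 myotubes 0 of 1. Counting overlapping events once gave 3 Dmpk events in TA and 1 in 480/480 myotubes. No paired analysis was possible because the values of an event are not tied to replicate numbers. The FDR could not be recomputed for a subset of libraries, since counts were not used here. The depth behind each event is unknown.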
